A study of Homo sapiens with 6 samples.

Results

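The genes described here act in the G2 phase and in mitosis, when a cell that has copied its DNA builds a spindle, parts its chromosomes and divides. They were chosen by function, as a list of 40 genes, and 39 of them were measured by a probe set that names a single gene, among 18417 genes in all. CENPA, the histone variant that marks centromeres, had a probe set shared with a neighbouring gene and was not analysed. Where a gene had several probe sets, the brightest on average stood for it. The cells were U-87, an established human glioma line, and the 6 arrays fall into 3 of P68 Knockdown cells and 3 of P68 Wild Type cells by their labels, which give no time after transfection. The labels state that cells received siP68 or NC by transfection, and do not say which agent the wild-type cells received. P68 is the RNA helicase encoded by DDX5. Values are signals on the log2 scale made with RMA, which equalises the arrays, so a shift common to nearly every gene is hidden in them.

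In dividing cells, the kinase CDK1 bound to cyclin A or cyclin B drives entry into mitosis, and PLK1 and the Aurora kinases organise the spindle and the centromeres. Kinesins move and shorten microtubules, kinetochores tie chromosomes to them, and the spindle checkpoint holds the cell back until every chromosome is attached. The anaphase-promoting complex with CDC20 then marks securin and the B cyclins for destruction, and the cell divides. Many of these genes are transcribed together late in the cycle through a promoter element named the cell cycle genes homology region, or CHR, which the DREAM and MYB-MuvB complexes bind, often with CCAAT boxes, which the factor NF-Y binds. In a culture of mixed cycle phases their levels follow the share of cells in G2 and mitosis as well as the RNA in each cell, and these cannot be told apart in bulk RNA.

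Promoter windows were read from RefSeq (GRCh38.p14), each running from 250 bases before to 50 bases after an annotated start, and 34 of the 40 genes had 44 windows. The letters searched, on both strands, were TTTGAA for the CHR, CCAAT for the CCAAT box, and TTTGGCGC or TTTCGCGC for an E2F site, the element of many G1/S genes. CCAAT boxes on opposite strands can overlap each other, as in HMMR. The CHR letters stood in 27 of the 44 windows (61.4%), against 15.2% of all 35116 windows of the table. CCAAT stood in 33 windows (75.0%), against 34.6% of all windows, and both together in 22 (50%), against 5.9%. The E2F letters stood in 3 windows (6.82%), against 1.15% of all. In the 129 windows of other mitosis genes, the CHR letters stood in 49 (38.0%), CCAAT in 65 (50.4%) and both together in 27 (20.9%). Shares above those of all windows were thus not particular to the members. In the 48 windows of G1/S and DNA replication genes the CHR letters stood in 1 (2.08%) and the E2F letters in 12 (25.0%), the other way round. CCAAT stood in 25 of these 48 (52.1%). Windows of a gene can overlap, so 1 site can count in more than 1 window. By gene, 24 of the 34 held the CHR letters (70.6%), against 18.2% of the 27305 genes with windows. CCAAT was held by 28 (82.4%, against 39.7%) and the E2F letters by 2 (5.88%, against 1.4%). A match is a run of letters and not a site shown to be bound.

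The windows below belong to the 6 genes with the largest log2 differences among those given array by array whose promoter holds the CHR letters, and they show how the motifs lie near the start. All are written 5′ to 3′ on the strand of the gene, with matches to the 3 motifs in capitals.
CDK1 (chr10:60778228-60778527, plus strand): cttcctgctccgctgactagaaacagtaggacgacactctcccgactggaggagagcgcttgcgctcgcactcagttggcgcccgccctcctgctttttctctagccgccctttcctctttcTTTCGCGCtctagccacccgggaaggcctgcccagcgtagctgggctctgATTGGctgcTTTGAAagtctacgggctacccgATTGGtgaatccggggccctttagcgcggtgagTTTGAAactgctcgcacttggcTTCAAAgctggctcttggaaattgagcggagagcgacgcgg
NUF2 (chr1:163321704-163322003, plus strand): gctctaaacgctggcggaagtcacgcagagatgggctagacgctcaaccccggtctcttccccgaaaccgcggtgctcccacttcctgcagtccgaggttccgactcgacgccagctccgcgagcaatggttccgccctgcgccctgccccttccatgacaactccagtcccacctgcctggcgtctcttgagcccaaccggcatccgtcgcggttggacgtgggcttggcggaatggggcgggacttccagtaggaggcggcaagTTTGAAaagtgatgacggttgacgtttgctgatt
HMMR (chr5:163460382-163460681, plus strand): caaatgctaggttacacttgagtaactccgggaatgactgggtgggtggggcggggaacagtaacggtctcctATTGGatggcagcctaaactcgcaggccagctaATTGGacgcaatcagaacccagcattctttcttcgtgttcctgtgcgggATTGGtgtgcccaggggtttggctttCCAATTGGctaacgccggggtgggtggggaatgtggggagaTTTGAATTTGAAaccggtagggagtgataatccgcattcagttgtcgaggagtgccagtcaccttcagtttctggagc
KIF4A (chrX:70289854-70290153, plus strand): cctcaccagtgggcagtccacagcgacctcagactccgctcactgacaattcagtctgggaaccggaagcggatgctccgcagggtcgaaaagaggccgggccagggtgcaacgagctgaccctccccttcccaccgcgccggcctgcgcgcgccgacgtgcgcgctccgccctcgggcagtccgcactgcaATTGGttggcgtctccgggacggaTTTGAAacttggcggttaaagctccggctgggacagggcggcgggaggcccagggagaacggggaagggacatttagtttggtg
MAD2L1 (chr4:120066799-120067098, minus strand): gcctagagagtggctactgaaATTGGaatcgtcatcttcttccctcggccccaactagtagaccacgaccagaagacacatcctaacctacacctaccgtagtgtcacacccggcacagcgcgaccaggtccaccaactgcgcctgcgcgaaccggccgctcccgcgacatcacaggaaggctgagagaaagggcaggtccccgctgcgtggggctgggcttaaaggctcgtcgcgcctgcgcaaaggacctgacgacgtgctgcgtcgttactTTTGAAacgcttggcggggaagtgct
TOP2A (chr17:40417847-40418146, minus strand): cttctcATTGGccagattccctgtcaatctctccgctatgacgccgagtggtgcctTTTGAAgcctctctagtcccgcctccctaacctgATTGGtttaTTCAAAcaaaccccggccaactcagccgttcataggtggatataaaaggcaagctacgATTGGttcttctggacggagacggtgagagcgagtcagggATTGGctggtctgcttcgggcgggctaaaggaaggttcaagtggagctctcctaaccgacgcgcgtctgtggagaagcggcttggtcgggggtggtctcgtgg

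**Figure D1:**
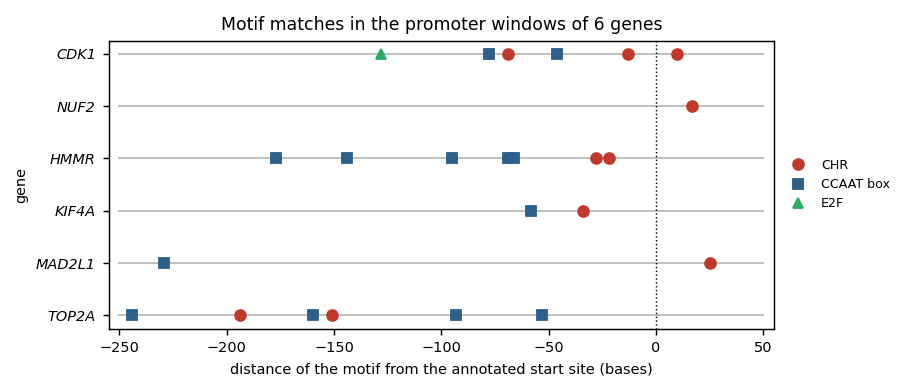
Positions of motif matches in the promoter windows of 6 G2/M and mitosis genes, with the distance of each match's first base from the annotated start on the x axis in bases and a row per gene. The printed window of CDK1 holds 3 CHR matches, 2 CCAAT matches and 1 E2F match, and that of NUF2 holds 1 CHR match and no other.

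In CDK1, the CHR letters began 69 and 13 bases before the start and 10 bases after it, and the CCAAT letters 78 and 46 bases before. HMMR held 2 CHR matches, 28 and 22 bases before the start, behind 5 CCAAT matches. KIF4A held the CHR letters 34 bases before the start and CCAAT 58 bases before. In MAD2L1 and NUF2 the CHR letters lay after the annotated start, at 25 and 17 bases. Over all member windows, 20 of 38 CHR matches and 43 of 65 CCAAT matches began within the 100 bases before the start. A site in overlapping windows of a gene was counted in each of them.

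The arrays were alike in scale. Array medians lay between 4.32 and 4.37, and pairs of arrays correlated with r = 0.979 to 0.990 over 29096 probe sets. DDX5 was at 9.47, 9.79 and 9.91 on the knockdown arrays 1, 2 and 3, against 10.09, 10.25 and 10.30 on the wild-type arrays, so its groups did not overlap (log2 difference -0.49 ± 0.13, SE, limma adjusted p = 0.902). Of 10 glial and glioma markers, 5 were among the dimmest 40% of genes, whose signal may be background, since no detection call was used. VIM lay at 7.25 to 7.94 and GFAP at 5.25 to 5.79 over the arrays, while CD44, AQP4, S100B, SOX2 and SLC1A3 were among the dim ones. No marker of neurons (4 measured), microglia (5) or endothelium (5) passed the threshold, and no gene of the table did. The median log2 differences of these lists were 0.19, 0.05 and 0.05, and that of the glial list was 0.06. A lower mean in the knockdown was found for 1 of the 4 neuron, 2 of the 5 microglia and 1 of the 5 endothelial markers. Of the 10 glial markers, 3 had a lower mean, where 46.5% of all genes did. Over all genes, 3.02% were higher in the knockdown at an unadjusted p under 0.05, and 5.98% lay higher without overlap of the groups. In each of these lists and in the glial one, 1 gene was higher in the knockdown at an unadjusted p under 0.05, with groups that did not overlap. CD68, of microglia, was at 5.22, 5.29 and 4.70 on the knockdown arrays, against 4.67, 4.46 and 4.58 on the wild-type arrays, a log2 difference of 0.50 ± 0.15 (SE). The others were the glial AQP4 at 0.37 ± 0.11, the neuronal STMN2 at 0.32 ± 0.11 and the endothelial CLDN5 at 0.27 ± 0.10 (log2 difference ± SE), all named after their values were seen. AQP4 and STMN2 were among the dimmest 40% of genes. Without such a p, the neuronal SYT1 also lay higher without overlap, and the glial SLC1A3 lower, as did 4.15% of all genes. SYT1 and SLC1A3 were dim too. The part of these markers in the results was not tested. No label tells separate cultures from repeat arrays of 1 culture, so the p-values reflect only how these arrays scatter, which may be technical.

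The comparison asks how these genes differ between P68 knockdown and P68 wild-type cells. Of the 39 genes, 27 had a lower mean in the knockdown, 11 a higher one and 1 the same, and 69.2% lower stands beside 46.5% of all genes. The median log2 difference was -0.06, against 0.01 over all genes. None of the 39 passed an adjusted p of 0.05 in limma, where 0% of all genes did. At an unadjusted p under 0.05, 7 were lower and none higher, where 5.09% of all genes had such a p, 2.06% lower and 3.02% higher. These 7 were CDK1, TOP2A, KIF4A, MAD2L1, KIF11, NUF2 and HMMR. KIF11, NUF2 and HMMR passed only narrowly, with an unadjusted p of 0.0484, 0.0495 and 0.0497 in limma. For 6 of the 7, all but HMMR, the groups did not overlap and lay lower in the knockdown, as for 4.15% of all genes. No member and 5.98% of all genes lay higher without overlap. Of the 39, 15 were among the dimmest 40% of genes, namely CDC25C, CCNB2, AURKA, BUB1, TTK, CENPE, CENPF, NUF2, KIF11, KIF14, KIF18A, HMMR, NUSAP1, DLGAP5 and MKI67.

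These counts moved with single arrays. The count at an unadjusted p under 0.05 was 3 without knockdown replicate 2, 2 without wild-type replicate 2 and 4 without wild-type replicate 3. How many of all genes had such a p, or a lower mean, with an array left out was not counted. The median log2 difference was -0.0017 without wild-type replicate 1, when 20 genes had a lower mean, and -0.03 without knockdown replicate 2. Leaving out knockdown replicate 1 gave a median of -0.14, leaving out wild-type replicate 2 gave -0.11 and leaving out wild-type replicate 3 gave -0.12.

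**Figure D2:**
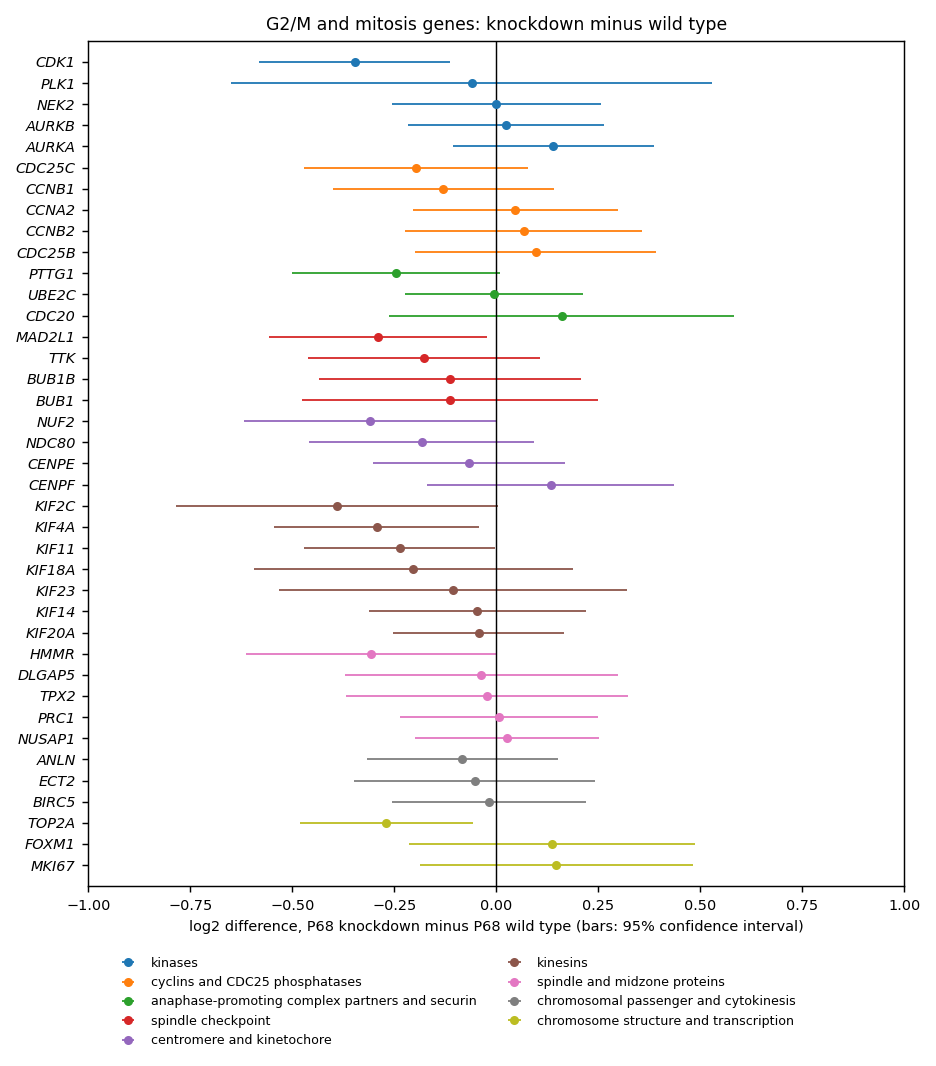
The log2 difference of each of the 39 genes, P68 knockdown minus P68 wild type, on the x axis, with genes down the page in functional groups and bars for the 95% confidence interval of limma (3 arrays a group). All 7 kinesins and all 4 spindle checkpoint genes lie left of 0, and no interval reaches a log2 difference of 1 on either side.

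The intervals bound how large a difference in signal these arrays leave room for, given a scatter that may be technical. For the 15 genes among the dimmest 40%, whose signal may be background, they do not bound the difference in RNA. No gene had a 95% confidence interval that reached a log2 difference of 1, a 2-fold difference. The interval that ran lowest was that of KIF2C, down to 58.0% of the wild-type signal, and the one that ran highest was that of CDC20, up to 149.7% of it. These intervals are each for 1 gene and are not widened for the number of genes.

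Of the 5 kinases, 2 had a lower mean in the knockdown, 2 a higher one and 1 the same. CDK1, the kinase that starts mitosis, was at 5.88, 5.66 and 5.87 on the knockdown arrays 1, 2 and 3, against 6.11, 6.11 and 6.23 on the wild-type arrays. Every knockdown array lay below every wild-type array. The knockdown mean was 5.80 ± 0.12 and the wild-type mean 6.15 ± 0.07 (SD, n = 3 arrays each). The log2 difference of CDK1 was thus -0.35 ± 0.11 (SE), and its knockdown signal 78.6% of the wild-type one (95% confidence interval 66.9% to 92.5%). With any 1 array left out, the log2 difference of CDK1 stayed between -0.39 and -0.28.

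PLK1, which matures the centrosomes and serves the kinetochore, was the member with the highest mean signal and varied most within each group. It was at 7.32, 6.30 and 6.37 on the knockdown arrays, against 7.18, 6.47 and 6.52 on the wild-type arrays. Replicate 1 of each group was high and the other two were low, and the groups overlapped. The log2 difference was -0.06 ± 0.27 (SE), and leaving out replicate 1 gave -0.39 when it was the knockdown array and 0.17 when it was the wild-type array. AURKA, the Aurora kinase of the spindle poles, had a log2 difference of 0.14 ± 0.11 (SE), AURKB, the kinase of the chromosomal passenger complex, one of 0.02 ± 0.11 (SE), and NEK2, which parts the centrosomes, had equal means of 4.63.

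Among the partners and activators of CDK1, no gene had groups that did not overlap. CDC25C, a phosphatase that removes inhibitory phosphates from CDK1, was at 3.68, 3.89 and 4.10 on the knockdown arrays, against 4.02, 4.05 and 4.19 on the wild-type arrays (log2 difference -0.20 ± 0.12, SE). Only knockdown replicate 3 reached into the range of the wild type. CDC25B, a related phosphatase, had a log2 difference of 0.10 ± 0.13 (SE). The B cyclins lay on opposite sides of 0, with CCNB1 at -0.13 ± 0.12 and CCNB2 at 0.07 ± 0.13 (log2 difference ± SE), and CCNA2, cyclin A, gave 0.05 ± 0.11. CDC25C and CCNB2 were among the dimmest 40% of genes.

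Of the genes that work with the anaphase-promoting complex, PTTG1, the securin that holds separase inactive, was at 4.17, 4.48 and 4.33 on the knockdown arrays, against 4.66, 4.61 and 4.45 on the wild-type arrays. The groups overlapped at knockdown replicate 2 and wild-type replicate 3, and the log2 difference was -0.25 ± 0.11 (SE). CDC20, which activates the complex, was at 5.97, 5.39 and 5.69 on the knockdown arrays, against 5.94, 5.31 and 5.32 on the wild-type arrays (log2 difference 0.16 ± 0.19, SE). Its 2 highest arrays were replicate 1 of either group, and its difference was 0.02 without that array of the knockdown and 0.37 without that of the wild type. UBE2C, the ubiquitin-conjugating enzyme of the complex, differed by -0.007 ± 0.10 (SE) on the log2 scale.

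All 4 spindle checkpoint genes had a lower mean in the knockdown, with a median log2 difference of -0.145. Their median deviation from the mean over the 6 arrays was -0.282 on knockdown replicate 2 and 0.243 on wild-type replicate 2. On each of the other arrays it lay between -0.006 and 0.033, so the shared lowering rested mainly on those arrays. MAD2L1, which binds and holds back CDC20, was at 5.56, 5.39 and 5.58 on the knockdown arrays, against 5.61, 5.99 and 5.80 on the wild-type arrays. The groups did not overlap and came closest at knockdown replicate 3 and wild-type replicate 1. MAD2L1 thus stood at 81.8% of the wild-type signal (95% confidence interval 67.9% to 98.5%), a log2 difference of -0.29 ± 0.12 (SE). That difference was -0.195 without wild-type replicate 2 and -0.385 without wild-type replicate 1. TTK, the kinase that recruits checkpoint proteins to the kinetochore, gave -0.18 ± 0.13 (SE), and BUB1 and BUB1B, a kinase and its relative at the kinetochore, each gave a log2 difference of -0.11. Without knockdown replicate 2, that of BUB1 was 0.07, and without wild-type replicate 2 that of BUB1B was 0.01.

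Of the 4 measured centromere and kinetochore genes, 3 had a lower mean in the knockdown. NUF2 and NDC80 encode partners in the complex that grips the microtubule. NUF2 was at 4.17, 3.67 and 4.14 on the knockdown arrays, against 4.37, 4.22 and 4.32 on the wild-type arrays. Knockdown replicate 2 was the low array, and the log2 difference of -0.31 ± 0.14 (SE) became -0.15 without it. Without knockdown replicate 1 it was -0.40. NUF2 was among the dimmest 40% of genes. NDC80 gave -0.18 ± 0.12 (SE), with knockdown replicate 3 at 4.82 among the wild-type values of 4.69 to 4.88. CENPE, the kinesin of the kinetochore, and CENPF, a large kinetochore protein, had log2 differences of -0.07 and 0.13. Like NUF2, both were among the dimmest 40% of genes.

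All 7 kinesins had a lower mean in the knockdown, with a median log2 difference of -0.20, and log2 differences from -0.39 to -0.04. Their median deviation from the mean over the 6 arrays was -0.28 on knockdown replicate 2 and 0.28 on wild-type replicate 1. On each of the other arrays it lay between -0.025 and -0.005, so the shared lowering rested mainly on those arrays. KIF2C, which takes microtubules apart at the centromere, was at 5.58, 5.25 and 5.20 on the knockdown arrays, against 6.15, 5.61 and 5.44 on the wild-type arrays. Replicate 1 was the highest array of each group, and knockdown replicate 1 lay above wild-type replicate 3. Of the 39 log2 differences this was the largest in size, at -0.39 ± 0.18 (SE), with KIF2C at 76.3% of the wild-type signal (95% confidence interval 58.0% to 100.4%). The log2 difference of KIF2C was -0.18 without wild-type replicate 1 and -0.54 without wild-type replicate 3.

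KIF4A, which shapes the spindle midzone and condenses chromosomes, was at 5.51, 5.37 and 5.63 on the knockdown arrays, against 5.93, 5.68 and 5.78 on the wild-type arrays. The groups did not overlap, and the log2 difference of -0.29 ± 0.11 (SE) stayed between -0.36 and -0.23 with any 1 array left out. KIF11, the motor that pushes the spindle poles apart, was at 4.10, 3.98 and 4.18 on the knockdown arrays, against 4.25, 4.28 and 4.44 on the wild-type arrays (log2 difference -0.24 ± 0.11, SE). Its groups did not overlap either, but KIF11 was among the dimmest 40% of genes. KIF18A, which damps chromosome movement at the spindle, gave -0.20 ± 0.18 (SE) and 0.008 without knockdown replicate 2. KIF23, a motor of the midzone and cytokinesis, gave -0.11 ± 0.19 (SE), and KIF14 and KIF20A, both of which work in cytokinesis, gave log2 differences of -0.05 and -0.04.

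Of the 5 spindle and midzone proteins, HMMR, a hyaluronan-binding protein that also sits at spindle poles, had the largest log2 difference in size, -0.31 ± 0.14 (SE). It was at 2.86, 3.01 and 3.11 on the knockdown arrays, against 3.06, 3.57 and 3.27 on the wild-type arrays, so the groups overlapped at wild-type replicate 1. HMMR was among the dimmest 40% of genes, and its difference was -0.17 without wild-type replicate 2 and -0.43 without wild-type replicate 1. The other members of this group, TPX2, which activates AURKA, PRC1, which bundles midzone microtubules, and the spindle proteins NUSAP1 and DLGAP5, all had log2 differences between -0.04 and 0.03.

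The 3 passenger and cytokinesis genes had log2 differences between -0.08 and -0.02. ANLN, which scaffolds the contractile ring, was at 6.73, 6.50 and 6.61 on the knockdown arrays, against 6.78, 6.69 and 6.62 on the wild-type arrays (log2 difference -0.08 ± 0.11, SE). Its groups overlapped. ECT2, which switches on the GTPase of the contractile ring, gave -0.05 ± 0.13 (SE), and BIRC5, or survivin, of the passenger complex gave -0.02 ± 0.11 (SE).

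The genes of chromosome structure and transcription did not go one way. TOP2A, the topoisomerase that untangles sister DNA, was at 5.04, 4.97 and 5.08 on the knockdown arrays, against 5.26, 5.34 and 5.30 on the wild-type arrays. The groups lay apart by more than the spread within either, with a knockdown mean of 5.03 ± 0.06 and a wild-type mean of 5.30 ± 0.04 (SD, n = 3 arrays each). TOP2A had a log2 difference of -0.27 ± 0.10 (SE), or 82.9% of the wild-type signal (95% confidence interval 71.6% to 96.1%), and it stayed between -0.295 and -0.24 with any 1 array left out. Its adjusted p was 0.902 in limma, as was that of CDK1. MKI67, the coat protein of mitotic chromosomes known as a marker of cycling cells, was at 4.01, 3.73 and 3.82 on the knockdown arrays, against 4.0, 3.72 and 3.40 on the wild-type arrays. Only wild-type replicate 3 stood low, and the log2 difference of 0.15 ± 0.15 (SE) was -0.007 without it. MKI67 was among the dimmest 40% of genes. FOXM1, a transcription factor of G2/M genes, gave 0.14 ± 0.16 (SE) and -0.055 without knockdown replicate 1, its highest array at 5.02.

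**Figure D3:**
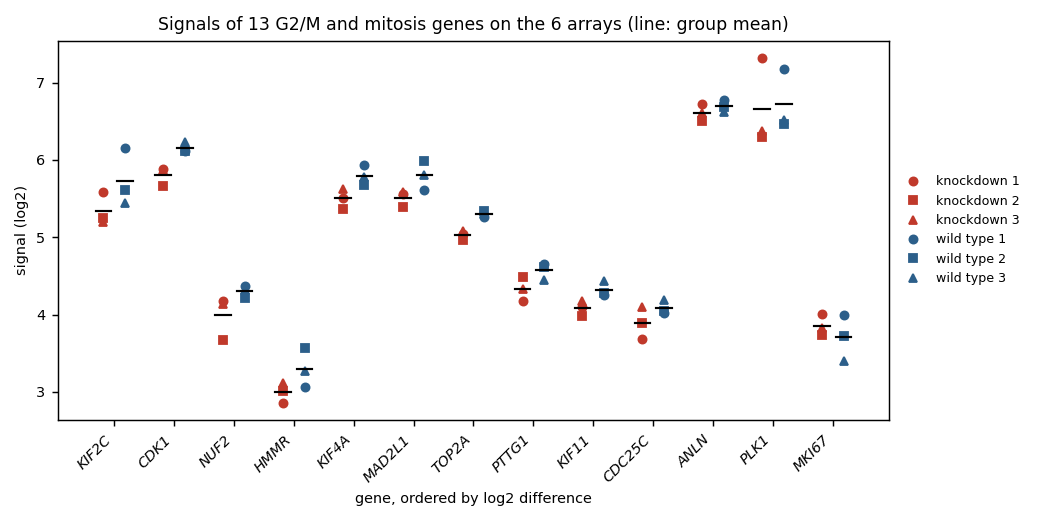
Signals on the log2 scale (y axis) of 13 genes on the 3 knockdown arrays (red, left) and the 3 wild-type arrays (blue, right), with a black line at each group mean and genes ordered by log2 difference. CDK1, NUF2, KIF4A, MAD2L1, TOP2A and KIF11 show no overlap of the groups, and PLK1 is above 7 on replicate 1 of both groups.

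Across the arrays, members shared highs and lows that did not follow the group labels alone. Knockdown replicate 2 was the lowest of the 6 arrays for 19 of the 39 genes (48.7%), against 43.2% of the G1/S and DNA replication genes and 18.7% of all genes. Wild-type replicate 1 was the highest for 13 (33.3%), against 27.3% of the G1/S and DNA replication genes and 14.7% of all genes. Taking each gene's deviation from its mean over the 6 arrays, the median over the members was 0.022, -0.137 and -0.037 on the knockdown arrays 1, 2 and 3, against 0.108, -0.027 and 0.023 on the wild-type arrays. Knockdown replicate 1 thus had a member median near that of wild-type replicate 3 and below that of wild-type replicate 1. Knockdown replicate 2 stood apart from the other knockdown arrays. The relation of these medians to the DDX5 signal was not tested.

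**Figure D4:**
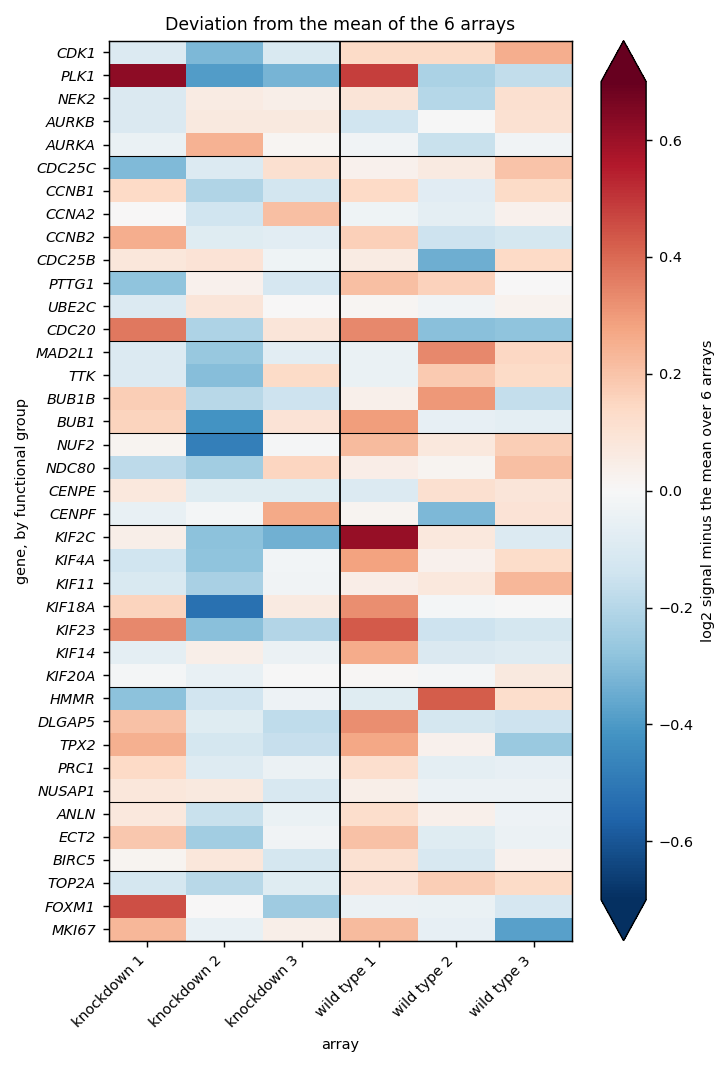
Deviation of each gene from its mean over the 6 arrays (colour, log2), with the 3 knockdown arrays left of the 3 wild-type arrays and the 39 genes in functional groups. Knockdown replicate 2 is mostly blue, and PLK1, CDC20, KIF23, TPX2 and DLGAP5 are red on replicate 1 of both groups.

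A further pattern lay in replicate 1 of both groups, and it was chosen after the values were seen. For 20 of the 39 genes (51.3%) replicate 1 was above the mean of replicates 2 and 3 in both groups, against 26.5% of all genes and 22 of 44 G1/S and DNA replication genes (50%), so this count was not particular to the mitosis genes. For 8 of the 39 (20.5%) it was above by more than 0.3 on the log2 scale in both groups, against 1.78% of all genes. These were PLK1, CDC20, BUB1, KIF18A, KIF23, KIF2C, TPX2 and DLGAP5. PLK1 was above by 0.985 among knockdown arrays and by 0.685 among wild-type arrays. KIF23 was above by 0.585 among knockdown arrays and 0.56 among wild-type arrays, and CDC20 by 0.43 among knockdown arrays and 0.625 among wild-type arrays. CDK1, TOP2A and KIF11 did not share it, with -0.06, -0.06 and -0.11 among wild-type arrays. Of the G1/S and DNA replication genes, 3 of 44 (6.82%) were above by that much in both groups, and the difference between the lists was not tested. The labels do not say whether arrays with the same number were handled together, and the part of such handling was not tested.

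**Figure D5:**
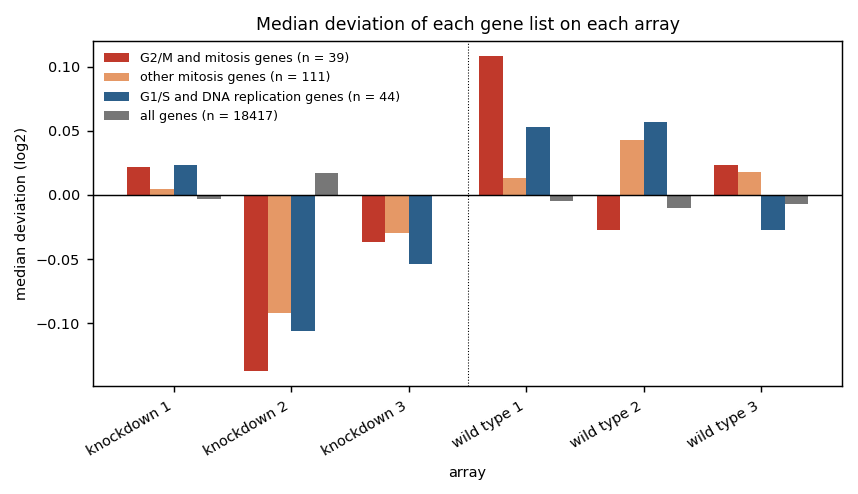
Median over each gene list of the deviation from the mean of the 6 arrays (y axis, log2) on the 3 knockdown arrays and the 3 wild-type arrays. The G2/M and mitosis genes have the lowest bar on knockdown replicate 2, at -0.137, and the highest on wild-type replicate 1, at 0.108.

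The genes around these members were described from further lists. Of 111 other measured mitosis genes, 72 had a lower mean in the knockdown (64.9%, against 46.5% of all genes) and 37 a higher one. Their median log2 difference was -0.07, and none passed the threshold. At an unadjusted p under 0.05, 6 were lower and 1 higher, where 2.06% of all genes were lower and 3.02% higher. The share of 46.5% also stands beside each count of lower genes in the lists that follow. Condensin and cohesin, the rings that compact and join sister chromatids, had 17 of 20 genes lower with a median of -0.12, and the condensin core subunit SMC2 differed most, at -0.28 ± 0.13 (log2 difference ± SE). Of 17 genes of the anaphase-promoting complex and its regulators, 12 were lower (median -0.09), while the subunit CDC26 differed most, at 3.20, 3.50 and 3.42 on the knockdown arrays, against 3.20, 2.46 and 2.83 on the wild-type arrays. CDC26 was among the dimmest 40% of genes. Of 30 other kinetochore and centromere subunits, 14 were lower (median 0.02) and 23 were among the dimmest 40% of genes. CENPC, which links the kinetochore to centromeric chromatin and was among these dim genes, differed most, at -0.33 ± 0.18 (SE).

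Among 11 other kinases, cyclins and phosphatases of G2/M, 10 were lower (median -0.11). WEE1, which inhibits CDK1, was at 4.95, 4.77 and 4.99 on the knockdown arrays, against 5.15, 5.11 and 5.29 on the wild-type arrays (log2 difference -0.28 ± 0.11, SE). Its groups did not overlap, but the mean of its 3 probe sets differed by only -0.07. Of 12 subunits and relatives of the DREAM and MYB-MuvB complexes, 8 were lower (median -0.11), with the E2F partner TFDP1 at -0.21 ± 0.11 (SE). Of 21 other mitotic kinesins, spindle and cytokinesis genes, 11 were lower (median -0.04) and 12 were among the dimmest 40% of genes. CEP55, which acts in the last cut between daughter cells and was among these dim genes, differed most at 0.26 ± 0.13 (SE).

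Genes that act in G1/S and in DNA replication, before G2, were described in the same way. Of 44, 32 had a lower mean in the knockdown (72.7%, against 46.5% of all genes), with a median log2 difference of -0.06. At an unadjusted p under 0.05, where 2.06% of all genes were lower, 4 of the 44 were. Their median deviation was also lowest on knockdown replicate 2, at -0.106. POLE2, a subunit of DNA polymerase epsilon, differed most, at -0.34 ± 0.21 (SE). It gave -0.12 without knockdown replicate 2 and -0.59 without knockdown replicate 3. The difference between the 2 lists was not tested.

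Members with and without the promoter letters are set side by side as a description. The 23 measured genes with the CHR letters had a median log2 difference of -0.11, with 17 lower in the knockdown, and the 10 without them one of -0.055, with 6 lower. The 27 genes with CCAAT letters had a median of -0.05, with 17 lower, and the 6 without them one of -0.15, with all 6 lower, so this split ran the other way from that of the CHR. These splits have no test.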

How the data were processed

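Total RNA of U-87 cells was measured on 6 Affymetrix Human Gene 1.0 ST arrays (platform of the probe annotation), 3 labelled P68 knockdown and 3 P68 wild type. The deposited values are log2 signals rounded to 2 decimals and made with RMA, per the submitters' processing notes; the software and its version: not given in the sources used here. Of 29096 probe sets, 19460 had 1 gene symbol, 1754 several and 7882 none. The probe set with the highest mean was kept for each of 18417 genes, and all were fitted with limma 3.58.1 in R 4.3.3 (lmFit and eBayes, group as the only term, two-sided, Benjamini-Hochberg over all genes, threshold 0.05, no filter). The fit was tested on simulated data with independent noise and changes larger than any member difference here. That test does not say how often differences of the members' size would be found. Precision is limited by the number of arrays (median standard error 0.12). No array copied another (SD of the difference at least 0.217).

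The members, lists and motifs were chosen with earlier results of these data known. Values on every array are given for members at an unadjusted p under 0.05, the largest absolute difference of each functional group, KIF2C, CDK1, MKI67 and the member of highest mean; CDC20 and the genes of the replicate 1 pattern were added after their values were seen. Each further list names its largest absolute difference. Alternatives were other scalings (median centring, repeated quantile, cyclic loess), a dim filter, the mean of probe sets or every probe set, an intensity trend, array weights, the replicate number as a block, a looser threshold of 0.1 and each array left out.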

Additional observations from a re-analysis of the deposited data

How the results depend on the processing

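No gene and no member passed the threshold under any alternative run, a threshold of 0.1 included, in limma, and the smallest adjusted p of a named gene under any of them was 0.661. Of all genes, 937 (5.09%) had an unadjusted p under 0.05 in limma, or 1149 (6.24%) with a replicate block. This share was not counted under the other alternatives, so the member counts there have none beside them. Without the dimmest 40% of genes, 17 members had a lower mean, since 15 of the 39 were left out. The number of members at an unadjusted p under 0.05, counted over alternatives chosen after the data were seen, was 7 and became 4 without the dimmest 40% of genes, 4 with every probe set tested on its own and 4 with array weights (the cause of the last pair was not tested), 9 under each other scaling, and 2 to 9 with single arrays left out. The median log2 difference of the members ran from -0.1417 to -0.0017 with single arrays left out and from -0.0767 to -0.0446 under the other alternatives. The median of all genes was 0.01, and -0.0067 with arrays centred on their medians, where 51.7% of genes and 29 members were lower.

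With a replicate block the members' median was unchanged at -0.06 and 8 members had an unadjusted p under 0.05, where 6.24% of all genes did. Deviations from the group means of same-numbered arrays correlated over all genes with r = 0.268, -0.027 and 0.125 for numbers 1, 2 and 3, and not every array correlated best with its own number, so the numbers are not taken to pair the samples. The same correlations over the members, which are not independent, were 0.657, 0.179 and 0.496. The block lowered the standard error of PLK1 to 0.11, against 0.27 without it, and that of KIF2C to 0.11, against 0.18.

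With single arrays left out 20 members kept their sign or had none, and 19 turned it, with log2 differences of -0.39 to 0.17 for PLK1, -0.0417 to 0.0833 for AURKB, -0.0467 to 0.13 for CCNA2, -0.045 to 0.17 for CCNB2, -0.05 to 0.19 for CDC25B, -0.05 to 0.04 for UBE2C, -0.22 to 0.0667 for BUB1, -0.23 to 0.01 for BUB1B, -0.11 to 0.0717 for KIF14, -0.33 to 0.0083 for KIF18A, -0.30 to 0.08 for KIF23, -0.16 to 0.10 for TPX2, -0.0617 to 0.0683 for PRC1, -0.0067 to 0.0883 for NUSAP1, -0.15 to 0.12 for DLGAP5, -0.0767 to 0.04 for BIRC5, -0.16 to 0.055 for ECT2, -0.0067 to 0.29 for MKI67 and -0.055 to 0.29 for FOXM1. Beyond these, PRC1 turned to -0.01 with centring, -0.0069 with repeated quantile normalisation and -0.014 with cyclic loess, BIRC5 to 0.0033 with the mean of its probe sets and NUSAP1 to -0.0051 with array weights. The cause was not tested.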
